A study of Mus musculus with 2 samples.

Results

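Kera-high keratocytes with high Fos were 367 of the 7668 cells in 2 single-cell libraries of the mouse cornea and limbal rim, 218 in the Becn1+/- library and 149 in the WT library. Keratocytes are the resident cells of the corneal stroma. They secrete the collagens and the small leucine-rich proteoglycans, among them keratocan (Kera), lumican (Lum) and decorin (Dcn), that keep the stroma transparent. Fos encodes a subunit of AP-1, a dimeric transcription factor, and belongs to the immediate early genes. These genes need no new protein for their transcription, are switched on within minutes by growth factors, cyclic AMP, calcium, stretch or stress, and are shut down again by feedback inhibitors that are induced with them. Transcription of this kind is also known from tissue that has been taken apart with enzymes at body temperature, and the part of the isolation in the values below was not tested.

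Cells were taken from 1 Becn1+/- mouse and 1 WT littermate, both healthy females of 28 days on a C57BL/6 background, with 1 library of droplet-based 10x Genomics sequencing for each. Becn1 encodes beclin 1, which is part of the lipid kinase complex that starts autophagosomes. Whole eyes had been stripped of lens, retina, iris, trabecular tissue and most of the conjunctiva, and the rims were digested at 37 °C with collagenase A for 2 h and then with trypsin for 20 min. Genotype, animal and library cannot be told apart in this design, so no test was made between them, and every interval below is a 95% interval of counting error alone.

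A cell was taken as a member when its own UMI counts, scaled to a common library size (CPM), were at least 5000 for Dcn, 1000 for Kera and 1000 for Fos, under 1500 for Chil1, which marks another stromal population, and under 5000 for Krt12, the keratin of corneal epithelium. The comparison set, called Fos-low below, was the 989 cells (726 Becn1+/-, 263 WT) that met the same limits with Fos under 1000 CPM. Because measured Fos chose the members, every difference between Fos-high and Fos-low cells is a description and carries no test. The members held 2158744 UMIs in the Becn1+/- library and 2046888 UMIs in the WT library, with medians of 9409.5 and 12889 UMIs per cell. Fos-low cells had medians of 8362.5 UMIs in the Becn1+/- and 12279 UMIs in the WT library. The median mitochondrial share was 1.82% and 1.86% in Fos-high cells and 1.94% and 1.96% in Fos-low cells, Becn1+/- before WT. Of 15 barcode strings found in both libraries, 1 belonged to a Fos-high cell. A doublet score marked 6 of 218 Becn1+/- and 5 of 149 WT Fos-high cells, against 8 of 726 and 2 of 263 Fos-low cells. Marked cells stayed in.

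The cells carried the markers of the label. Summed over the Fos-high cells, Lum stood at 6017 CPM in the Becn1+/- and 5654 CPM in the WT library, Col1a1 at 18266 and 21006 CPM, the corneal crystallin Aldh3a1 at 3251 and 2789 CPM, and the secreted factor Angptl7 at 3215 and 3238 CPM. None of these 4 genes was part of the rule. The leukocyte genes Ptprc and Cd3e were at 0 in both libraries, and the 6 mast cell, 6 Schwann cell and 6 melanocyte markers summed to at most 8.79 CPM in any library. The 9 corneal epithelial markers other than Krt12 summed to 772 CPM in Becn1+/- and 571 CPM in WT Fos-high cells, against 953 CPM in Becn1+/- and 688 CPM in WT Fos-low cells, and all 9 were detected in both Fos-high sets. The 9 leukocyte markers summed to 31.5 CPM in Becn1+/- and 23.5 CPM in WT Fos-high cells, against 76.2 CPM in Becn1+/- and 69.9 CPM in WT Fos-low cells. The 5 trabecular and ciliary markers, led by Mgp, summed to 7327 CPM in Becn1+/- and 5637 CPM in WT Fos-high cells, against 7131 CPM in Becn1+/- and 6111 CPM in WT Fos-low cells. The conjunctival, corneal endothelial and vascular lists summed to between 35.7 and 69.4 CPM in Fos-high cells, with Muc5ac at 0. Their part in the results was not tested.

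Becn1 itself (chr11:101285952-101302286) was at 34.7 CPM in Becn1+/- and 27.4 CPM in WT Fos-high cells, a log2 ratio of 0.34 with an interval of -0.17 to 0.87. In Fos-low cells it was at 35.4 CPM in the Becn1+/- and 31.6 CPM in the WT library. The labels do not give the altered stretch of the gene and the reads come from transcript ends, so the level says nothing about the label.

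Promoter sequences of 5 genes that the results turn on are shown for reference. Each runs 5′ to 3′ on the gene's own strand, from 250 bases before to 50 bases after the transcript start, taken from RefSeq on build GRCm38.p6. Capitals mark TGACG, the core of the cyclic AMP response element, in Fos (chr12:85473640-85473939, plus strand), Nr4a1 (chr15:101266596-101266895, plus strand, where the motif lies on the other strand and reads CGTCA) and Dusp1 (chr17:26508423-26508722, minus strand). They mark a CArG box, the site class of serum response factor, in Zfp36 (chr7:28379179-28379478, minus strand), and GAANNTTC, a pair of heat shock element units, in Hspa1a (chr17:34972107-34972406, minus strand).
Fos: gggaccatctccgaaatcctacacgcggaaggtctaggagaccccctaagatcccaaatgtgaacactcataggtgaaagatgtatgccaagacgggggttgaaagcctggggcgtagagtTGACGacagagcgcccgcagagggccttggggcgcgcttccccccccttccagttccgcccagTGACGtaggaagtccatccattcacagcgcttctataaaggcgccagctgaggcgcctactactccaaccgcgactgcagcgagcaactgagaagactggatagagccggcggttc
Nr4a1: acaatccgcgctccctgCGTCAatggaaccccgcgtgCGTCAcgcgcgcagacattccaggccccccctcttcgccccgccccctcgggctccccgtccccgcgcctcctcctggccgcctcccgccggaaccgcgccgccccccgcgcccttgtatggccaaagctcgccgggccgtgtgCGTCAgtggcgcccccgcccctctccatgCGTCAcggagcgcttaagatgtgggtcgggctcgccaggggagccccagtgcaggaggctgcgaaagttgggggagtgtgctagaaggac
Zfp36: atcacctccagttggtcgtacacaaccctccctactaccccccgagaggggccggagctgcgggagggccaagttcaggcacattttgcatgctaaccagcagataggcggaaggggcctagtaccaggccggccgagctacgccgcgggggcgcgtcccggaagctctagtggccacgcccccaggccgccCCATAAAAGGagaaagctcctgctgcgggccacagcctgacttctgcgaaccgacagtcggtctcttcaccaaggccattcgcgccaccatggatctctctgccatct
Dusp1: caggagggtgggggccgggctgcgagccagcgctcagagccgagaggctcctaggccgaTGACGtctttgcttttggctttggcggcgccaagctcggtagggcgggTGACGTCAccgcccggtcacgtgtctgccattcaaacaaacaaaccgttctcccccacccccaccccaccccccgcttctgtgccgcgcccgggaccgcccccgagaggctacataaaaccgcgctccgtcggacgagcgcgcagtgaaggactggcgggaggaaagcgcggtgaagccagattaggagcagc
Hspa1a: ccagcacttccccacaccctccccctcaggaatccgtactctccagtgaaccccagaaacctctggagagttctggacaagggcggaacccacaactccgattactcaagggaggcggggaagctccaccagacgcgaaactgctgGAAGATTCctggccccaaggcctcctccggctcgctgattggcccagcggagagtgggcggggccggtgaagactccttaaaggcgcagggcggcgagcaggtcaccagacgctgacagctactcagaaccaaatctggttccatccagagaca
The Fos window held TGACG at 129 and 66 bases before the start, and the Nr4a1 window held it 4 times, at 233, 213, 69 and 40 bases. In Dusp1 the motif stood at 191, 143 and 140 bases, and the copies at 143 and 140 overlap in the palindrome TGACGTCA. The CArG box of Zfp36 began 58 bases before the start and the GAANNTTC of Hspa1a 104 bases before it. Across all 32851 promoter windows of this length, searched on both strands, TGACG was present in 20.8%, TGACGTCA (which contains it) in 1.79%, a CArG box in 1.63%, the AP-1 motif TGANTCA in 7.81% and GAANNTTC in 7.86%. Among the 3403 measured genes with a window, 40.9% held TGACG in at least 1 window. Of the 32 genes on the immediate early and feedback lists that were higher in Fos-high cells, 24 had a window and 15 of these (62.5%) held TGACG, and of the 12 lowest genes 6 of 9 with a window did (66.7%). Over all genes past 1.5-fold, TGACG was found for 43.5% of the higher and 37.0% of the lower genes. TGANTCA was found for 4.71% of the higher and 13% of the lower genes, against 5.91% of the measured genes. TGACGTCA was found for 29 of 361 higher genes (8.03%), 1 of 138 lower genes (0.725%) and 4.44% of the measured genes. A match describes letters in a window and shows no binding.

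Fos ran over a wide range among the members. Its lowest, median and highest level per cell was 1014, 6921 and 22472 CPM in the Becn1+/- library and 1011, 4753 and 29272 CPM in the WT library. The highest cells outside the rule had 999 CPM in the Becn1+/- and 992 CPM in the WT library. From 800 to 1000 CPM there were 15 Becn1+/- and 13 WT cells, and from 1000 to 1200 CPM there were 12 and 13, so the threshold cut through a continuous range of levels. In Fos-low cells the median was 0 CPM in the Becn1+/- and 90.1 CPM in the WT library. Kera, which also took part in the rule, had a median of 3353 CPM in Becn1+/- and 4293 CPM in WT Fos-high cells, against 4731 CPM in Becn1+/- and 5409 CPM in WT Fos-low cells.

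Fos-high cells made up 23.1% of the Kera-high keratocytes in the Becn1+/- library (218 of 944, exact binomial interval 20.4 to 25.9) and 36.2% in the WT library (149 of 412, 31.5 to 41.0). Without a common floor of depth these intervals did not overlap. They cover counting error among cells alone, so they cannot tell genotype from animal or library. The libraries had different floors of depth, with no barcode under 5430 UMIs in the Becn1+/- and none under 8089 UMIs in the WT library. With the WT floor applied to both, the share was 28.1% in the Becn1+/- library (162 Fos-high cells), against the same 36.2% in the WT library. The share of 28.1% lay above the Becn1+/- interval of 20.4 to 25.9. With cells thinned to 5000 UMIs, the shares of both libraries stayed within their main intervals. The floor also changes which cells are counted, and the part of depth in the gap was not tested. Whether the intervals still part with this floor was not tested. Among Dcn-high cells with Kera under the limit, Fos-high cells were 38.5% (120 of 312) in the Becn1+/- and 53.7% (73 of 136) in the WT library. Kera-high keratocytes as a whole were 18.3% of all barcodes in the Becn1+/- and 16.4% in the WT library.

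**Figure D1:**
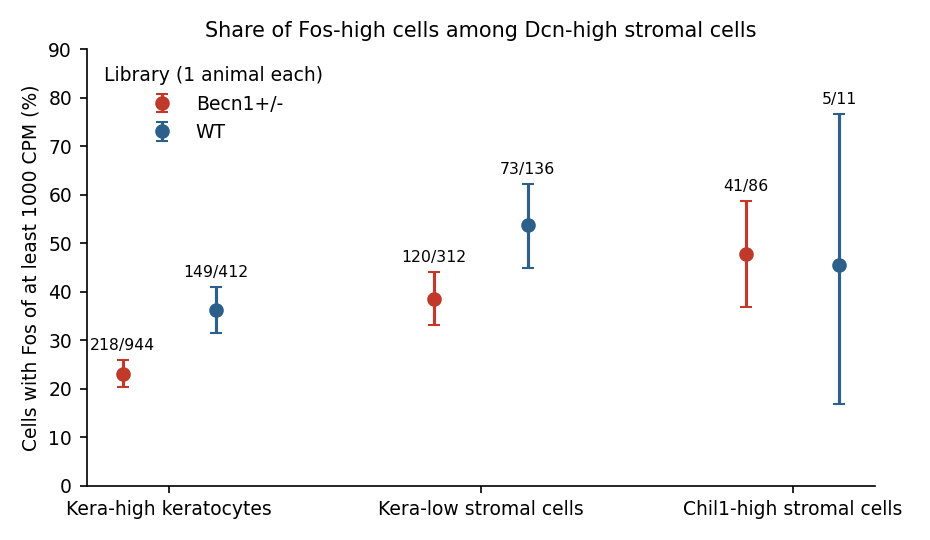
Percentage of cells with Fos of at least 1000 CPM (y axis) in 3 sets of Dcn-high stromal cells (x axis), in the Becn1+/- (red) and the WT (blue) library; points are 1 library each, bars are exact 95% binomial intervals, and the numbers are Fos-high cells over all cells of the set. Among Kera-high keratocytes the share was 23.1% in the Becn1+/- and 36.2% in the WT library, whereas the Chil1-high set holds 11 WT cells and its interval is wide.

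Beyond Fos, the members had higher levels of many other immediate early genes, of most measured feedback inhibitors, and of the heat shock gene Hspa1a. Across the 4374 genes that averaged 20 CPM or more over both sets in each library, 455 (10.4%) were at least 1.5-fold higher and 186 (4.25%) at least 1.5-fold lower in Fos-high than in Fos-low cells of both libraries. Some genes reached this average through 1 of the 2 sets alone. Of the 20 highest genes, Hspa1a, Egr2, Dusp6, Rgs16, Txnip, Pim3, Irf1, Ciart, Per1 and 2410080I02Rik did so through Fos-high cells in both libraries. Zfp36 did so in the WT and Klf10 in the Becn1+/- library. Of the 12 lowest, Gal, Procr, Hsd17b7, E430024P14Rik and Gch1 did so through Fos-low cells in both libraries, and Chac1 in the Becn1+/- library. Such genes are in the counts and, where listed, in the list medians. The 2 libraries gave the same direction for 3450 of the 4374 genes, and 8 genes were past 1.5-fold in opposite directions. The median gene differed by 0.08 on the log2 scale in the Becn1+/- and 0.07 in the WT library. The shares of 10.4% and 4.25% are the background for the list counts below. All ratios below are log2 of Fos-high over Fos-low CPM with 0.5 added to each count.

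**Figure D2:**
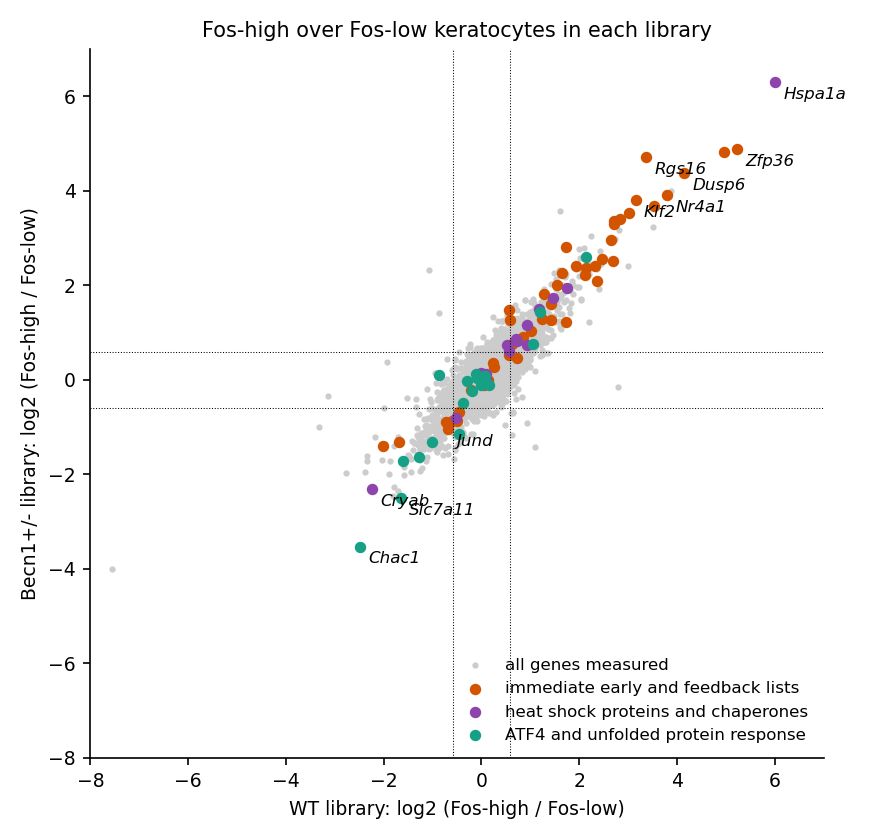
Log2 ratio of Fos-high over Fos-low keratocytes for 4374 genes in the Becn1+/- library (y axis) and the WT library (x axis); dotted lines mark 1.5-fold, and colours mark the immediate early and feedback lists (orange), heat shock and chaperone genes (purple) and ATF4 and unfolded protein response genes (green). The orange points lie on both sides of 0, with Jund, Dusp5 and Dusp14 among those below it and Zfp36 at 4.88 and 5.22. The grey point at the far left is Gal, which had 0 UMIs in WT Fos-high cells.

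Partners of Fos in AP-1 did not move as a block. Of the 13 genes on this list 9 were measured, with Fos left out, and their median ratio was 1.26 in the Becn1+/- and 1.43 in the WT library, with 6 past 1.5-fold higher and 1 lower in both. Junb (chr8:84974484-84978718), a Jun-family partner, was at 1470 CPM in Fos-high against 115 CPM in Fos-low cells of the Becn1+/- library, and at 1791 against 156 CPM in the WT library. Its ratios were 3.68 (3.56 to 3.80) and 3.52 (3.39 to 3.66). Fosb was at 882 against 82.6 CPM in the Becn1+/- and 862 against 120 CPM in the WT library, and Jun had ratios of 2.1 and 2.36. Atf3, a stress-induced partner, had 2.21 and 2.13 and Fosl2 1.26 and 1.43. Jund, the Jun-family member that is usually present without stimulation, went the other way with 496 against 1017 CPM in the Becn1+/- and 668 against 1074 CPM in the WT library. Fosl1 was also lower, at -0.88 in the Becn1+/- and -0.49 in the WT library, where it was short of 1.5-fold.

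Of 20 measured genes among the EGR, NR4A and KLF factors and other immediate early genes, 13 were higher and 1 was lower past 1.5-fold in both libraries, with medians of 1.87 in the Becn1+/- and 1.44 in the WT library. Nr4a1 (chr15:101254269-101274795), an orphan nuclear receptor, was at 1113 CPM in Fos-high against 74.1 CPM in Fos-low cells of the Becn1+/- library, and at 1162 against 83.7 CPM in the WT library. The ratios, 3.91 and 3.79, differed little between the libraries. Klf2 (chr8:72319033-72321656), a zinc finger factor known from flow-exposed endothelium, was at 1984 against 141 CPM in the Becn1+/- and 1809 against 203 CPM in the WT library. Egr1 was at 1341 against 116 CPM in the Becn1+/- and 1280 against 157 CPM in the WT library. Egr2 was rare in both sets and had 55.6 against 1.89 CPM in the Becn1+/- and 42.0 against 1.2 CPM in the WT library, with Fos-low values that rest on 12 and 4 UMIs. Egr2 thus averaged 20 CPM only through Fos-high cells. Hes1, a repressor and Notch target, had ratios of 3.31 and 2.71, Csrnp1 2.97 and 2.66, and Klf10, a TGF-beta-inducible factor, 2.51 and 2.70. Related genes were not all as high. Nr4a2 had 1.04 in the Becn1+/- and 1.01 in the WT library, Klf4 1.28 and 1.23, and Klf6 0.85 and 0.74. Ier5 had -0.22 and -0.21, and Myc was the lower member, at 24.6 against 45.6 CPM in the Becn1+/- and 35.7 against 59.3 CPM in the WT library.

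Feedback inhibitors were split by gene. Of 19 measured, 13 were higher and 3 lower past 1.5-fold in both libraries, with medians of 1.61 and 1.43. At least Dusp6, Rgs16 and Per1, among the higher, averaged 20 CPM only through Fos-high cells, and Zfp36 did so in the WT library. Zfp36 (chr7:28376784-28380253) encodes tristetraprolin, which binds AU-rich elements and speeds the decay of cytokine and immediate early mRNAs. It was at 767 CPM in Fos-high against 26.0 CPM in Fos-low cells of the Becn1+/- library, and at 692 against 18.4 CPM in the WT library, with ratios of 4.88 (4.65 to 5.12) and 5.22 (4.86 to 5.63). Dusp6 (chr10:99263231-99267489), a phosphatase that inactivates ERK, was at 113 against 5.35 CPM in the Becn1+/- and 104 against 5.72 CPM in the WT library. Dusp1, a phosphatase of several MAP kinases, was at 1537 against 289 CPM in the Becn1+/- and 1261 against 329 CPM in the WT library. Rgs16, which turns off G protein signals, was at 418 against 15.9 CPM in the Becn1+/- and 196 against 19.0 CPM in the WT library. Nfkbia, the inhibitor that retains NF-kappaB in the cytoplasm, was at 2479 against 350 CPM in the Becn1+/- and 1586 against 478 CPM in the WT library. The lower ones were 2 other dual-specificity phosphatases, Dusp14 (-1.39 and -2.02) and Dusp5 (-1.31 and -1.69), and Spred1 (-0.88 and -0.60), an inhibitor of Ras signalling. Phosphatases of the same family thus stood on both sides.

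Heat shock genes were led by a single member. Hspa1a (chr17:34969190-34972156), the inducible HSP70, was at 948 CPM in Fos-high against 12 CPM in Fos-low cells of the Becn1+/- library, and at 898 against 13.9 CPM in the WT library. This was the highest ratio of all measured genes in both libraries, 6.30 (5.98 to 6.66) and 6.00 (5.6 to 6.47). Hspa1a averaged 20 CPM only through Fos-high cells. Hspa1b is a near-identical copy beside it, so how counts were shared between them is uncertain. It had 27.3 against 2.36 CPM in the Becn1+/- and 30.3 against 1.2 CPM in the WT library. Of 15 measured heat shock proteins and chaperones, 8 were higher and 1 was lower past 1.5-fold in both libraries. The co-chaperone Dnajb1 had ratios of 1.95 and 1.76, Hsph1 1.5 and 1.17, and the constitutive Hspa8 1.16 and 0.93. The small heat shock protein Hspb1 (0.03 and 0.08) and the co-chaperone Bag3 (0.13 and 0.09) were close to the median gene. Cryab (chr9:50751325-50756636), alpha B-crystallin, was the lower one, at 476 against 2368 CPM in the Becn1+/- and 407 against 1911 CPM in the WT library, ratios of -2.31 and -2.23. It is a small heat shock protein like Hspb1, and the 5 highest cells held 35.9% of its UMIs in Becn1+/- and 42.9% in WT Fos-high cells.

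Targets of ATF4, the factor of the integrated stress response, also stood on both sides. Among 18 measured genes of the ATF4 and unfolded protein response list, 3 were higher and 5 lower past 1.5-fold in both libraries, with medians of -0.11 and -0.25. Chac1 (chr2:119351229-119354381), an enzyme that degrades glutathione, was at 19.5 CPM in Fos-high against 227 CPM in Fos-low cells of the Becn1+/- library, and at 37.1 against 208 CPM in the WT library. Its ratios were -3.53 (-4.03 to -3.10) and -2.48 (-2.85 to -2.14). Slc7a11, the cystine importer, was at 12 against 69.4 CPM in the Becn1+/- and 22.0 against 69.9 CPM in the WT library. Fgf21, a secreted hormone, was at 164 against 512 CPM in the Becn1+/- and 300 against 727 CPM in the WT library. Sesn2 (-1.73 and -1.60) and Asns (-1.31 and -1.01) completed the lower group. The higher ones were Ppp1r15a, the phosphatase subunit that ends the eIF2 block (2.60 and 2.14), Ddit4, an inhibitor of mTORC1 (1.43 and 1.2), and Ddit3 (0.77 and 1.05). Atf4 mRNA itself was at 687 against 649 CPM in the Becn1+/- and 744 against 704 CPM in the WT library, and Hspa5, the chaperone of the endoplasmic reticulum, was at 937 against 852 CPM in the Becn1+/- and 922 against 923 CPM in the WT library.

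**Figure D3:**
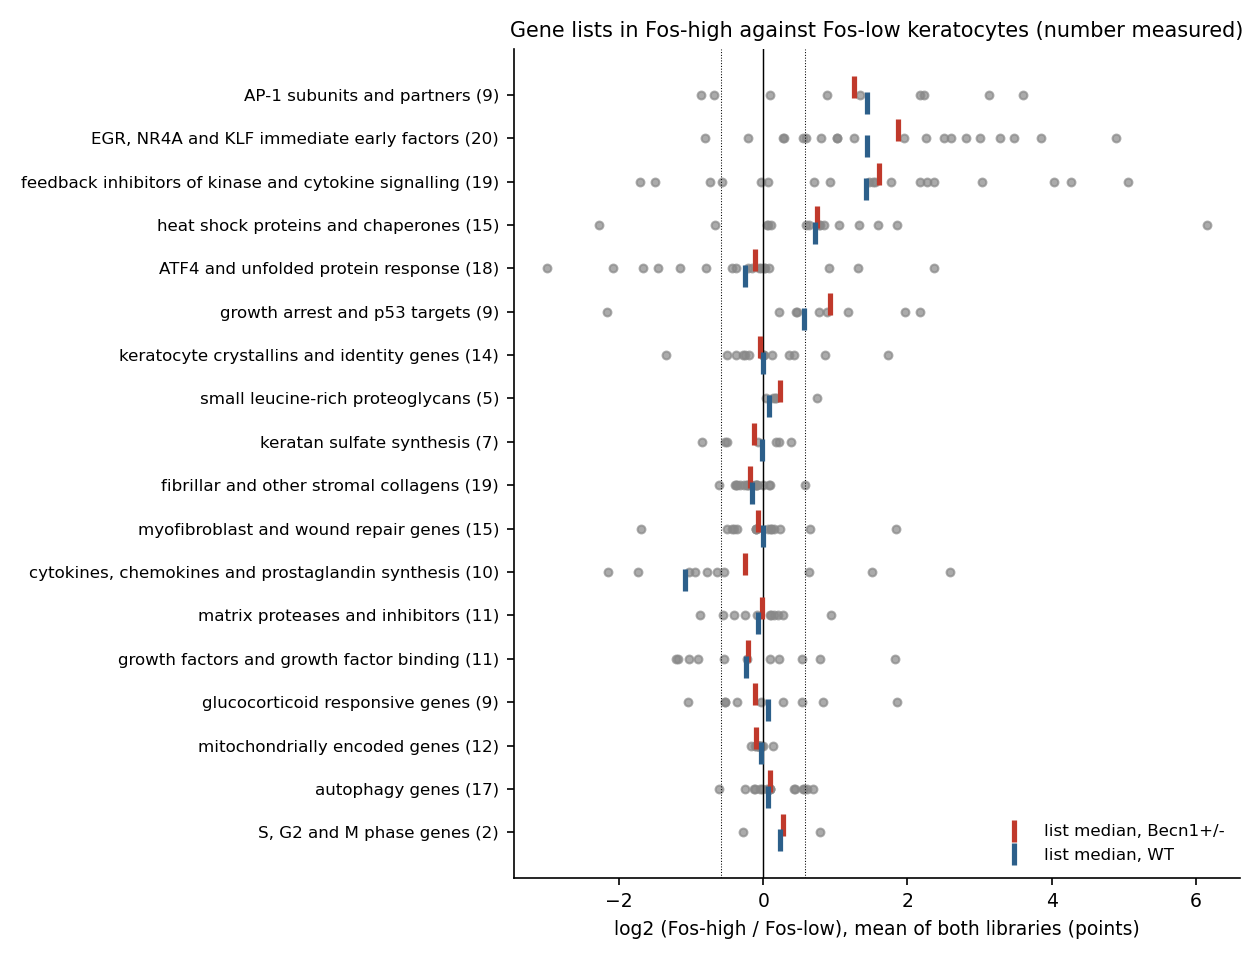
Log2 ratio of Fos-high over Fos-low keratocytes (x axis) for the measured genes of 18 lists (y axis, number measured in brackets); each grey point is 1 gene as the mean of both libraries, coloured bars are the list medians in the Becn1+/- (red) and the WT (blue) library, and dotted lines mark 1.5-fold. The first 3 lists have medians from 1.26 to 1.87, whereas the collagen, mitochondrial and autophagy lists stay near 0.

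The other 20 highest genes included several outside these lists. Txnip, which binds and inhibits thioredoxin, was at 149 CPM in Fos-high against 9.29 CPM in Fos-low cells of the Becn1+/- library, and at 121 against 8.13 CPM in the WT library. Pim3, a serine/threonine kinase, had ratios of 3.89 and 3.79, and Irf1, a transcription factor of interferon responses, 3.24 and 3.51. Id1, which blocks basic helix-loop-helix factors, was at 2132 against 369 CPM in the Becn1+/- and 1916 against 299 CPM in the WT library. Its relative Id3 had 1.54 and 1.59, and Id2 had 0.37 and 0.53. The uncharacterised 2410080I02Rik had 2.99 and 2.72. Txnip, Pim3, Irf1 and 2410080I02Rik averaged 20 CPM only through Fos-high cells.

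The lowest genes by the same rule were Gal, Chac1, Cryab, Procr, Gadd45a, Nav2, Srxn1, Fjx1, Hsd17b7, E430024P14Rik, Gch1 and Ttc8. Gal, which encodes the neuropeptide galanin, rested on few cells. It had 11 UMIs in 3 Becn1+/- Fos-high cells and 0 UMIs in WT Fos-high cells, where the exact Poisson limit is 1.80 CPM, against 539 UMIs in 24 Becn1+/- and 152 UMIs in 4 WT Fos-low cells. Srxn1, sulfiredoxin, was at 68.1 against 374 CPM in the Becn1+/- and 90.9 against 317 CPM in the WT library. Gadd45a, a growth arrest gene, was at 72.7 against 283 CPM in the Becn1+/- and 55.2 against 287 CPM in the WT library. Its relatives went the opposite way, with Gadd45b at 2.29 and 1.65 and Gadd45g at 2.35 and 2.01. Over the 9 measured growth arrest and p53 target genes, 4 were higher and 1 was lower past 1.5-fold in both libraries. The p53 targets Cdkn1a (0.50 and 0.43) and Mdm2 (0.92 and 0.86) had smaller ratios. Gch1, the entry enzyme of tetrahydrobiopterin synthesis, had -2.35 and -1.71, and Ttc8, a subunit of the BBSome, -1.69 and -2.03.

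The structural genes of the stroma had smaller ratios than these. None of the 19 measured collagen and collagen-processing genes was past 1.5-fold in both libraries in either direction, and their medians were -0.18 and -0.16. Col1a1 was at 18266 CPM in Fos-high against 22888 CPM in Fos-low cells of the Becn1+/- library, and at 21006 against 26010 CPM in the WT library. Col1a2 had ratios of -0.43 and -0.34, and Lox, which cross-links collagen, -0.65 and -0.58. Among the 5 small leucine-rich proteoglycans measured outside the rule, Fmod was past 1.5-fold higher, at 800 against 440 CPM in the Becn1+/- and 832 against 535 CPM in the WT library, while Lum had 0.23 and 0.11. Without the 5 highest cells of each set Fmod was at 646 against 485 CPM in the WT library, short of 1.5-fold. Here and below, this step takes a larger share of Fos-high cells (218 Becn1+/- and 149 WT) than of Fos-low cells (726 and 263). Kera, whose level took part in the choice of both sets, summed to 3534 against 4722 CPM in the Becn1+/- and 4141 against 5404 CPM in the WT library. Of 7 keratan sulfate synthesis genes, B4galt1, a galactosyltransferase, was lower (-0.89 and -0.80).

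Keratocyte identity genes gave 2 higher and 1 lower of 14 measured, next to 10.4% higher and 4.25% lower of all genes measured. Aldh3a1 had ratios of 0.08 and -0.08, Angptl7 -0.36 and -0.41, and Tkt, another crystallin-like enzyme of keratocytes, -0.32 and -0.25. Foxc1, a forkhead factor of the anterior eye, was the lower one, at 22.7 against 57.9 CPM in the Becn1+/- and 23.5 against 61.1 CPM in the WT library. Gsn, an actin-severing protein, was higher (0.67 and 1.05), but the 5 highest cells held 31.8% of its UMIs in Becn1+/- and 49.7% in WT Fos-high cells. Without those of each set it was at 165 against 143 CPM in the Becn1+/- and 188 against 163 CPM in the WT library.

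Counts in the wound repair and signalling lists stand next to 10.4% higher and 4.25% lower of all genes measured. Of 15 measured myofibroblast and wound repair genes, Cyr61, a matricellular protein, was higher (1231 against 279 CPM in the Becn1+/-, 1162 against 401 CPM in the WT library). Thbs1, thrombospondin 1, was lower (408 against 1585 CPM in the Becn1+/-, 569 against 1545 CPM in the WT library). Acta2, the actin of myofibroblasts, was at no more than 8.31 CPM in any of the 4 sets of Kera-high cells. Of 11 growth factor genes 2 were higher and 4 lower, and of these Vegfa had -1.14 and -0.92 and Igfbp3 -1.49 and -0.93. Igfbp6 was higher (2.00 and 1.67), with 57.5% of its UMIs in 5 Becn1+/- cells and 74.7% in 5 WT cells. In the glucocorticoid-responsive list Sgk1 (1.69 and 2.03) and Nr3c1 (0.59 and 1.07), the receptor itself, were higher (Nr3c1 at 54.6 against 37.9 CPM in the Becn1+/- library without the 5 highest cells, short of 1.5-fold) and Fkbp5 (-0.96 and -1.13) was lower, out of 9 measured. Of 11 matrix proteases and inhibitors Timp3 (0.63 and 1.24) was higher and none lower. Without the 5 highest cells of each set Timp3 was at 44.5 against 32.2 CPM in the Becn1+/- and 42.7 against 29.7 CPM in the WT library, short of 1.5-fold in both.

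Cytokine genes differed between the libraries in this comparison. Of 10 measured, 2 were higher and 2 lower past 1.5-fold in both, with medians of -0.26 in the Becn1+/- and -1.09 in the WT library. The neutrophil chemokine Cxcl1 was at 1304 CPM in Fos-high against 108 CPM in Fos-low cells of the Becn1+/- library, and at 854 against 282 CPM in the WT library. The adhesion molecule Icam1 had ratios of 1.71 and 1.31. Cxcl2 was at 252 against 49.9 CPM in the Becn1+/- library but at 86.5 against 181 CPM in the WT library, so its direction was opposite. Ccl2 had ratios of 0.38 and -1.93, but without the 5 highest cells of each set it was lower in the Becn1+/- library too, at 96.8 against 117 CPM. That step took 5 of 218 Fos-high but 5 of 726 Fos-low cells. Csf3 was lower in both, at 82.5 against 165 CPM in the Becn1+/- and 20.5 against 207 CPM in the WT library.

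Neither the 12 measured mitochondrially encoded genes nor the 17 measured autophagy genes had a member past 1.5-fold in both libraries. The autophagy medians were 0.09 and 0.07, next to 0.08 and 0.07 for all genes measured. Only 2 of 18 S, G2 and M phase genes reached 20 CPM, and of these Hmgb2 was higher (0.96 and 0.63). Of the markers of limbal and trabecular tissue, Myoc and Pi16 sat in a handful of members. Others were broad, with Mgp at 4834 CPM in Becn1+/- and 3392 CPM in WT Fos-high cells. Fmod had UMIs in 191 Becn1+/- and 125 WT members. Myoc had 46 UMIs in 4 Becn1+/- cells and 46 UMIs in 6 WT cells, and Pi16 had 73 UMIs in 6 Becn1+/- and 129 UMIs in 10 WT cells. In Fos-low cells Myoc had 1 UMI in the Becn1+/- and 0 UMIs in the WT library, and Pi16 had 5 UMIs in 3 Becn1+/- and 7 UMIs in 4 WT cells. The summed 12 limbal and scleral fibroblast markers were at 2035 CPM in Becn1+/- and 2267 CPM in WT Fos-high cells, against 1841 CPM in Becn1+/- and 2084 CPM in WT Fos-low cells. Fmod, higher in Fos-high cells as given above, is in this sum. Dpt, the highest of the 12, went the other way, at 924 against 1185 CPM in the Becn1+/- and 1023 against 1220 CPM in the WT library. The part of the cells with Myoc or Pi16 in the results was not tested.

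Along the range of Fos, the genes did not all follow the same course. The Kera-high cells were divided into 9 bands of Fos, of which the lower 4 are Fos-low. Nr4a1 was already at 333 CPM in Becn1+/- and 292 CPM in WT cells with Fos of 500 to 1000 CPM, against 30.3 CPM in Becn1+/- and 29.5 CPM in WT cells with Fos under 100 CPM. Zfp36 stayed between 15 and 32.1 CPM in all 4 lower bands of both libraries. It was at 120 and 60.1 CPM with Fos of 1000 to 2000 CPM, at 824 and 841 CPM with Fos of 4000 to 8000 CPM, and at 1792 and 1474 CPM above 16000 CPM, Becn1+/- before WT. Nr4a1 was thus graded across the limit of 1000 CPM, and Zfp36 was flat below it. Hspa1a lay between 8.35 and 37.1 CPM in the 4 lower bands and Dusp6 between 3.34 and 14.3 CPM, and both exceeded 100 CPM in every band from 4000 CPM on. Cryab ran from 2537 CPM in the lowest band to 123 CPM in the highest in the Becn1+/- library, and from 1824 to 116 CPM in the WT library, although in WT cells it was higher in the bands from 100 to 500 CPM than in the lowest. Chac1 was at or under 24.2 CPM in every band above 2000 CPM in both libraries.

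**Figure D4:**
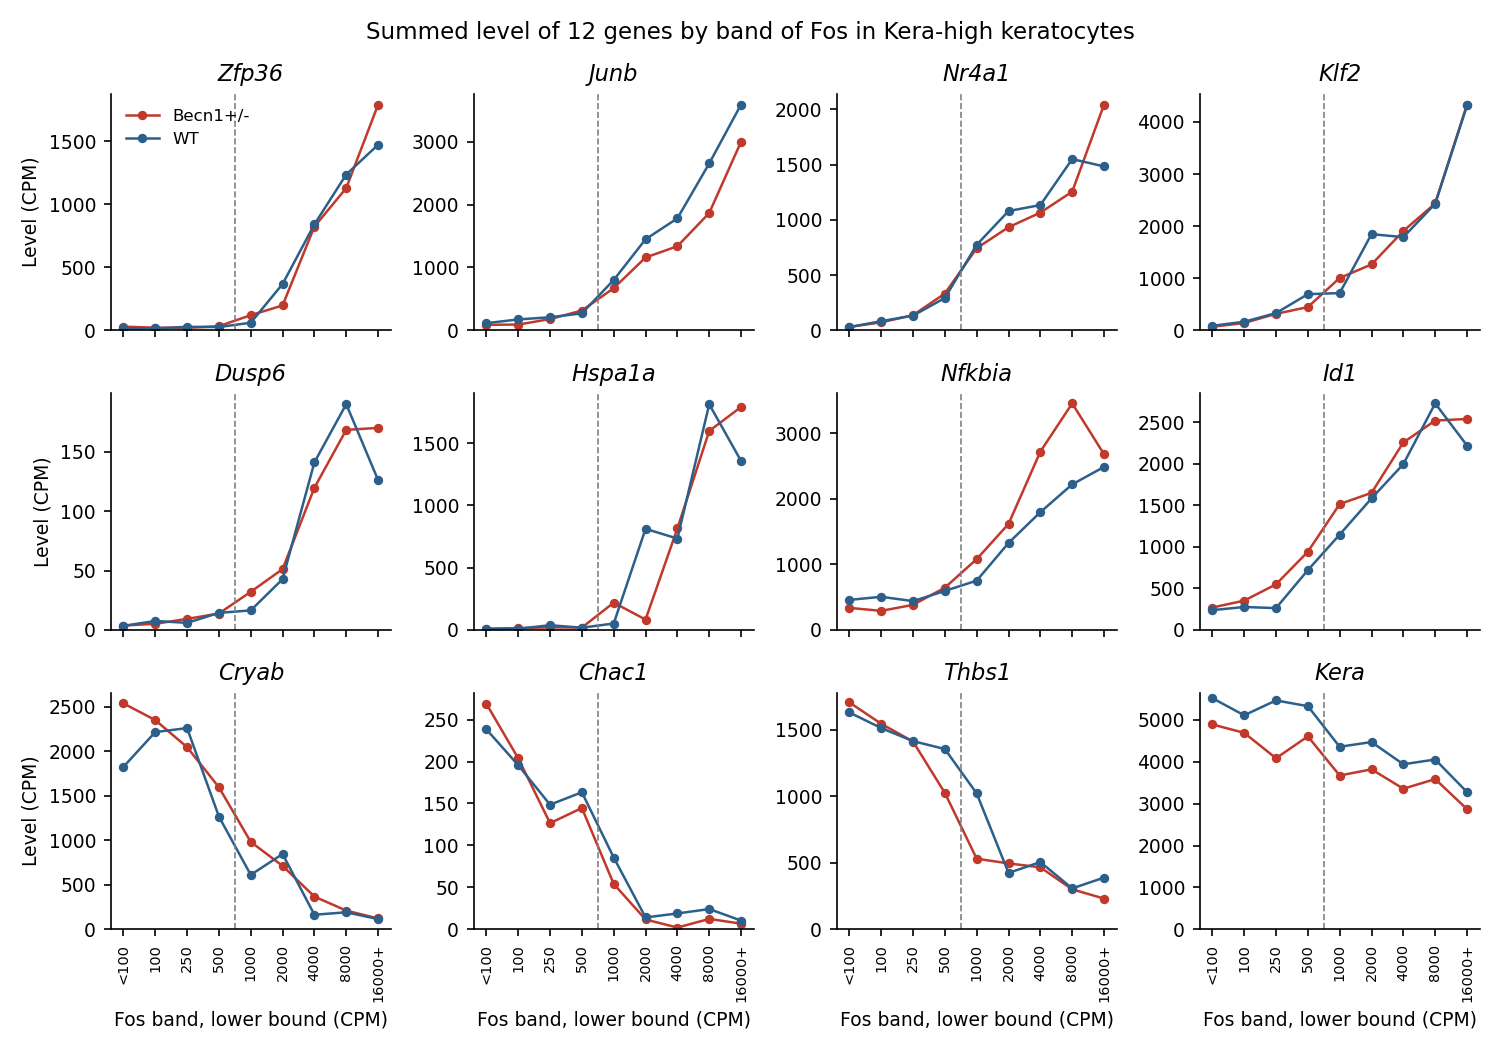
Summed level in CPM (y axes, linear) of 12 genes in 9 bands of Fos per cell (x axes, lower bound in CPM) of Kera-high keratocytes, in the Becn1+/- (red) and the WT (blue) library; each point sums 9 to 409 cells, and the dashed line marks the 1000 CPM limit of the rule. Nr4a1, Junb, Klf2 and Id1 climb from the lower bands on, Zfp36, Dusp6 and Hspa1a stay low below the limit, and Cryab, Chac1 and Thbs1 fall off along the range.

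Within the members alone, likeness to Fos was described gene by gene. The measure was Spearman's rho with Fos CPM over 218 Becn1+/- and 149 WT cells for the 2494 genes that averaged 50 CPM or more. All genes of a cell share that cell's depth, and Fos CPM had a rho of -0.08 and -0.02 with UMIs per cell. The 8 highest were Zfp36 (0.70 in the Becn1+/- and 0.78 in the WT library), Egr1 (0.69 and 0.66), Junb (0.63 and 0.64), Csrnp1 (0.55 and 0.60), Nfkbia (0.54 and 0.58), Dusp1 (0.56 and 0.56), Ccnl1 (0.55 and 0.53) and Ppp1r15a (0.50 and 0.58). Nr4a1, a marker of these cells, had 0.34 and 0.35 and Hspa1a 0.39 and 0.39. Emp1 (-0.42 and -0.50), F3, the tissue factor (-0.50 and -0.42), and Hmox1 (-0.51 and -0.40) were at the lower end, and Kera had -0.12 and -0.14.

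The same genes were compared in Dcn-high cells with Kera under 1000 CPM. Of the 4374 genes, 241 (5.51%) were past 1.5-fold higher and 137 (3.13%) lower in Fos-high over Fos-low cells of both libraries there. All 20 of the highest genes in Kera-high cells were among the 241, and 8 of the 12 lowest were among the 137. Gal, Gadd45a, Hsd17b7 and Ttc8 were not. Hspa1a had ratios of 3.76 in Becn1+/- and 3.53 in WT Kera-low cells, against 6.30 and 6.00 in Kera-high cells. Fos-low levels of the gene were 37.4 CPM in Becn1+/- and 47.3 CPM in WT Kera-low cells, against 12 and 13.9 CPM in Kera-high cells. Over all called genes, 155 of the 455 higher and 70 of the 186 lower genes were past 1.5-fold in the same direction in Kera-low cells. Whether the ratios of the 2 kinds of cell differ was not tested.

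Set against WT, few genes were past 1.5-fold in the Becn1+/- Fos-high cells. Among the 2491 genes that averaged 50 CPM or more, 23 (0.923%) were at least 1.5-fold higher and 32 (1.28%) at least 1.5-fold lower in the Becn1+/- library. These counts include genes that reached 50 CPM only through the library where they were higher. The median log2 ratio of Becn1+/- over WT was 0.01, and the central 90% of genes lay between -0.38 and 0.34. Fos was at 7350 CPM in Becn1+/- and 6411 CPM in WT members, a ratio of 0.20, and both libraries had been chosen on it.

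Csf3 (granulocyte colony-stimulating factor, chr11:98701263-98703629) was at 82.5 CPM in Becn1+/- and 20.5 CPM in WT Fos-high cells, a log2 ratio of 1.99 (1.51 to 2.53). Cxcl2, a neutrophil chemokine, was at 252 CPM in Becn1+/- and 86.5 CPM in WT cells (1.54, 1.29 to 1.79), and Ccl2, a monocyte chemokine, at 211 and 75.7 CPM (1.47, 1.21 to 1.75). Csf3, like Timp1 and Pglyrp1, averaged 50 CPM only through its level in the Becn1+/- library. For this reason no count or median of the cytokine list is given. These UMIs came from few cells. The 5 highest cells held 54.5% of the Csf3 UMIs in Becn1+/- and 71.4% in WT Fos-high cells, 58.7% and 79.1% of Cxcl2, and 55.2% and 74.8% of Ccl2. Without those cells the ratios were 2.62, 2.5 and 2.28, on levels of 6.09 to 107 CPM. For Csf3 the step took 5 of 40 Becn1+/- but 5 of 16 WT cells with a UMI. It thus removed more of the WT level, and the rise of the ratios is no sign of stability. In Fos-low cells the same ratios of Becn1+/- over WT were below 0.

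Other genes higher in the Becn1+/- members were Timp1, an inhibitor of matrix metalloproteinases, at 78.7 CPM in Becn1+/- and 21.5 CPM in WT cells, Rgs16 (1.09), the chaperone clusterin Clu (1.21), Pglyrp1 (1.27), Fam101a (0.99) and Apoe, the lipid carrier. Apoe was at 2849 CPM in Becn1+/- and 1757 CPM in WT Fos-high cells (0.70, 0.64 to 0.76), and at 3791.5 CPM in Becn1+/- and 2388 CPM in WT Fos-low cells. Its ratio was alike in both sets, 0.70 and 0.67. Pglyrp1 also had a positive ratio in Fos-low cells (1.81). Timp1 had 73.5% of its UMIs in 5 Becn1+/- cells and 54.5% in 5 WT cells, and a ratio of 1.06 without them.

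The lower genes were Ndufa4l2, Fgf21, Ugdh, Cthrc1, Cd34, Hmox1, Dlk1, Gm10076, Igfbp6 and Igfbp5. Hmox1, heme oxygenase 1, was at 737 CPM in Becn1+/- and 1176 CPM in WT Fos-high cells (-0.67, -0.77 to -0.58), and at 2120 CPM in Becn1+/- and 2198 CPM in WT Fos-low cells. Ndufa4l2, a hypoxia-linked mitochondrial protein, was at 144 CPM in Becn1+/- and 266 CPM in WT Fos-high cells (-0.89), with a ratio of 0.07 in Fos-low cells. Fgf21 was at 164 CPM in Becn1+/- and 300 CPM in WT Fos-high cells (-0.87), and Ugdh, which makes the precursor of glycosaminoglycans, at 43.5 and 88.9 CPM (-1.03). Ugdh and Cd34 (36.6 CPM in Becn1+/- and 72.8 CPM in WT cells) averaged 50 CPM only through their level in the WT library. Igfbp6 had a ratio of -0.82, which was -0.09 without the 5 highest cells of each library. Under the same step Igfbp5 had -0.40, short of 1.5-fold, and 5 cells held 36.2% of its UMIs in WT Fos-high cells.

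**Figure D5:**
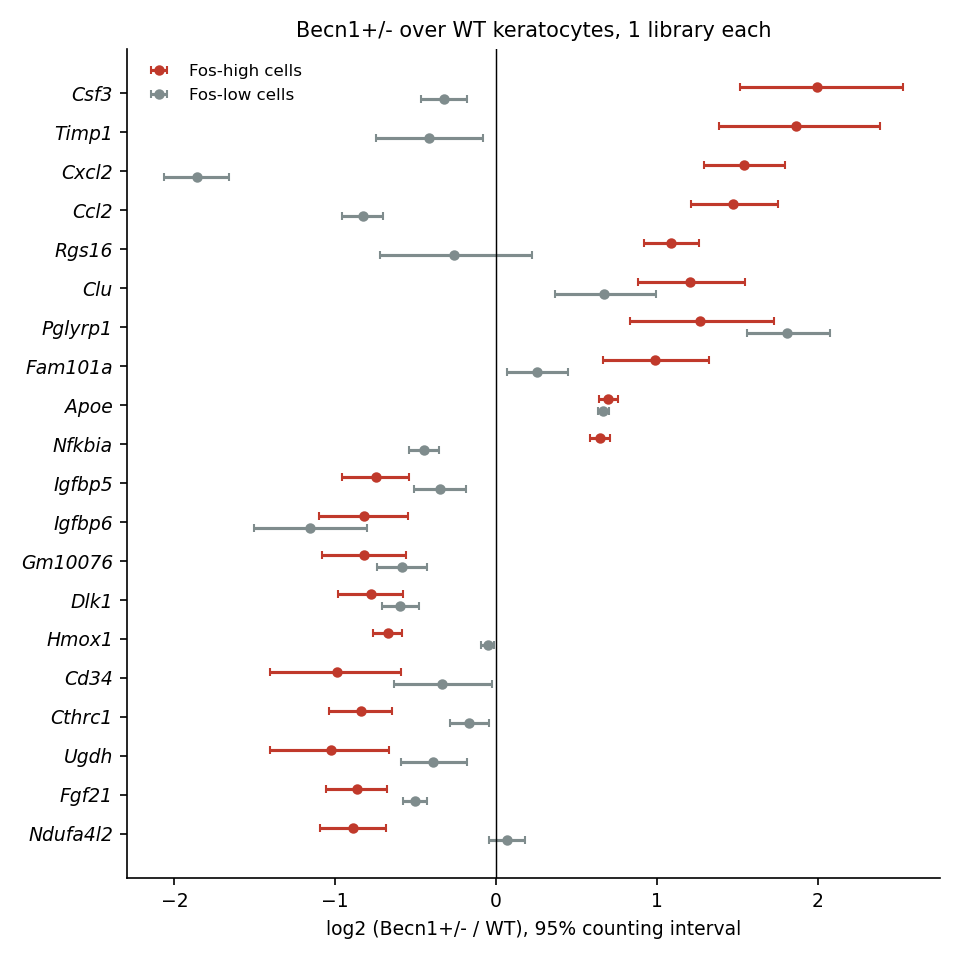
Log2 ratio of Becn1+/- over WT (x axis) for the 10 highest and 10 lowest genes (y axis) in Fos-high (red) and Fos-low (grey) keratocytes, 1 library each; bars are 95% counting intervals. Csf3, Timp1, Cxcl2, Ccl2 and Nfkbia lie right of 0 in Fos-high and left of 0 in Fos-low cells, while Apoe has 0.70 and 0.67.

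By list, 16 of 18 measured collagen genes were lower in the Becn1+/- members, with a median of -0.18, and 13 of 14 heat shock genes were higher, with a median of 0.10. Of all genes measured, 48.5% were lower and 51.5% were higher by any size. In Fos-low cells Col1a1 (-0.18) and Col1a2 (-0.12) were lower in the Becn1+/- library too, while Col3a1 was higher (0.15). The collagen list was not counted in Fos-low cells. Of the 9 AP-1 genes, 7 were lower in the Becn1+/- library, with a median of -0.31, and none was past 1.5-fold. Junb was at 1470 CPM in Becn1+/- and 1791 CPM in WT members. The 11 measured autophagy genes had a median of 0.02, with 6 higher and 5 lower. With 1 animal of each genotype none of these list values can be told apart from a difference between animals.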

How the data were processed

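UMI counts per gene and cell came as 1 deposited matrix for each library, made by the authors with Cell Ranger 2.1.1 and build mm10, per the submitters' processing notes. How cells were called, and with which annotation release, is not given in the sources used here. Counts of 1 barcode were divided by its total for the rule, and counts summed over the cells of a set were divided by the set's total, both as CPM. Ratios are log2 with 0.5 added to each count, and intervals are exact conditional 95% intervals that cover counting error only. No test was made, since each genotype is 1 animal and Fos chose the members. The members, gene lists and comparisons were chosen with earlier results of these data known.

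Genes were measured from 20 CPM (Fos-high over Fos-low, mean of both sets in each library) or 50 CPM (Becn1+/- over WT), and set apart at 1.5-fold. Genes were named as the 20 highest and 12 lowest by the smaller of both libraries' ratios, without the rule's genes, as the 10 highest and 10 lowest between genotypes by the interval bound nearest to 0, as the 8 most like Fos, and as leading or needed members of each list. Doublets were scored with Scrublet in scanpy 1.11.5, the top 0.8% per 1000 barcodes were marked (213 Becn1+/- and 51 WT), and they were removed as an alternative. Scrublet's own cut marked 2 Becn1+/- and 9 WT barcodes. Gene positions are from GENCODE on mm10. Python 3.11.15, numpy 2.4.6, scipy 1.17.1, pandas 2.3.3 and matplotlib 3.10.9 were used, and the ratios were tested on simulated data. Alternatives were other Fos and Kera limits, marked doublets removed, cells thinned to 5000 UMIs, centring on the median gene, means of per-cell CPM and filters at 5 and 100 CPM.
Some results are not reported here.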

Additional observations from a re-analysis of the deposited data

Results flagged for a closer look

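For 6 genes the Becn1+/- library was higher than the WT library in Fos-high keratocytes and lower in Fos-low keratocytes, with counting intervals off 0 on both sides. The difference between the cell sets was not tested, since there was 1 library of each genotype. The log2 ratio of Becn1+/- over WT was 1.99 in Fos-high and -0.32 in Fos-low cells for Csf3, and 1.86 and -0.42 for the protease inhibitor Timp1. For the chemokine Cxcl2 it was 1.54 in Fos-high and -1.86 in Fos-low cells, for Ccl2 1.47 and -0.83, and for Cxcl1 0.61 and -1.38. For the NF-kappaB inhibitor Nfkbia it was 0.64 in Fos-high and -0.45 in Fos-low cells. Without the 5 highest cells of each set and library, Timp1 had 1.06 in Fos-high and 0.21 in Fos-low cells, so that its signs no longer differed. Under the same step Csf3 had 2.62 in Fos-high and -0.11 in Fos-low cells, where the interval of -0.28 to 0.06 spans 0. Cxcl2 then had 2.5 and -1.40, Ccl2 2.28 and -0.50, Cxcl1 0.61 and -0.73, and Nfkbia 0.70 and -0.47. The step takes a larger share of the smaller WT sets, so ratios with and without it are not on equal terms.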

How the results depend on the processing

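Of 11 alternatives, ratios of named genes were run under 9 (Fos-high over Fos-low) or 8 (Becn1+/- over WT), and none past 1.5-fold changed sign under these. Sizes did move. Of the Fos-high over Fos-low ratios 232 left their main counting interval and 1352 stayed, and of the Becn1+/- over WT ratios 33 left and 127 stayed. With cells thinned to 5000 UMIs, 11 of the Becn1+/- over WT ratios left and 9 stayed. Among the alternatives, a WT depth floor in both libraries and Fos-low cells under 250 CPM were chosen after seeing the data. The Fos-high share of Kera-high keratocytes was 28.4% in the Becn1+/- and 43.0% in the WT library with Fos from 500 CPM, 18% and 26.2% with Fos from 2000 CPM, and 28.1% in the Becn1+/- library with the WT depth floor. Counts of genes past 1.5-fold moved with the filter. At 5 CPM, 1285 were higher and 323 lower in Fos-high cells and 564 higher and 642 lower in the Becn1+/- members, and at 100 CPM these were 91, 59, 13 and 17. Thinning cells to 5000 UMIs gave 49 higher and 65 lower genes in the Becn1+/- members. The EGR, NR4A and KLF median was 1.35 in the Becn1+/- and 1.21 in the WT library with Fos from 500 CPM, 1.97 in the Becn1+/- library at 5 CPM, 2.26 and 1.65 at 100 CPM, and 1.96 and 1.72 with Fos-low cells under 250 CPM. The heat shock median was 0.63 in the Becn1+/- library with Fos from 500 CPM. At 100 CPM the AP-1 medians were 2.15 and 2.24 and the feedback median was 2.41 in the Becn1+/- library. The cytokine median over Fos-low cells, -0.26 in the Becn1+/- library, was 0.77 at 5 CPM and 0.10 at 100 CPM. The filters change which genes are counted, and the cause of the other shifts was not tested. The median of all genes was 0.18 and 0.17 at the 5 CPM filter. No paired analysis was possible because each genotype has 1 library.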

Other observations

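Gene groups outside the lists are given here as values, and they were chosen after those values were seen. Of their genes, Per1 is also on the feedback inhibitor list and Slc7a11 on the ATF4 list, so both were already counted above. Of clock genes, the repressors Ciart (170.5 CPM in Fos-high against 18.7 CPM in Fos-low cells of the Becn1+/- library, 135 against 19.0 CPM in the WT library) and Per1 (log2 ratios of 3.36 and 2.70) were higher in Fos-high cells. Dbp (1.39 and 1.38) and Nr1d1 (1.56 and 1.39), an output gene and a repressor of the clock, were higher by less. Arntl, which encodes the activator BMAL1, was at 12 against 37.3 CPM in the Becn1+/- and 7.82 against 40.7 CPM in the WT library. Ciart and Per1 averaged 20 CPM only through Fos-high cells, and Arntl only through Fos-low cells.

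Some genes with roles in splicing and transcript processing are given as single values. Clk1, a kinase of splicing factors, was at 261 against 47.2 CPM in the Becn1+/- and 221 against 40.7 CPM in the WT library, and Ccnl1, cyclin L1, at 951 against 173 CPM and 740.2 against 164 CPM. The splicing regulator Tra2b (1.46 and 1.15) and the cleavage factor Pcf11 (1.91 and 1.80) were also higher in Fos-high cells. Of genes known as NRF2 targets, Srxn1 was at -2.45 and -1.80, Slc7a11 at -2.50 and -1.66, and Hmox1 at -1.52 and -0.90.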
